A study of Mus musculus with 4 samples.

Results

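Interferon-stimulated genes are the antiviral and immune genes that cells switch on when they meet interferon. The list described here holds 35 such genes of the 55401 genes counted, found by symbol, and 34 of them were among the 11676 genes with enough reads to test. The RNA came from P14 CD8+ T cells, mouse T cells with a transgenic receptor specific for lymphocytic choriomeningitis virus (LCMV), sorted from spleen after infection with LCMV-Armstrong. Cells had been transduced with an empty vector (2 libraries, called controls below) or with one made to overexpress Hic1, which encodes a repressor of transcription with zinc fingers (2 libraries). Each library thus came from transduced cells exposed to the virus. Sampling was on day 32 by the sample labels and on day 7 by the series text.

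Library totals ran from 3941364 to 8839317 counts, and both Hic1 libraries were deeper than both controls. Hic1 itself had 3 and 5 counts in the controls and 314 and 161 in the libraries with its vector. Every library had counts of all 10 CD8 T cell markers, which summed to 8385 and 9305 CPM (counts-per-million scale, TMM-scaled) in the controls and 9377 and 10644 CPM with Hic1. By edgeR 0 of these markers were called, 4 had an unadjusted p below 0.05 (beside 19.1% of all genes tested) and the median log2 fold change was 0.25. In 6 of them (60%, beside 26.5% of all genes tested) both Hic1 libraries were above the controls. Xist, the RNA of the inactive X chromosome, was at 458 and 0 CPM in control replicates 1 and 2 and at 505 and 0.342 CPM in Hic1 replicates 1 and 2, while the Y-linked Eif2s3y was at 0 and 98.9 and at 0 and 108 CPM. Replicate number and sex-linked RNA thus moved together. By these RNAs, replicates 1 and 2 of each group were cells of opposite sex and not repeats of 1 sample. The labels do not tell how many animals or cultures each stands for, and p-values measure only the spread between these samples.

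Type I interferons bind the receptor formed by Ifnar1 and Ifnar2, whose kinases Jak1 and Tyk2 activate STAT proteins, Stat2 among them, which join Irf9 on a DNA element called the interferon-stimulated response element. Interferon gamma, which activated CD8 T cells secrete, binds Ifngr1 and Ifngr2 and acts mainly through the gamma-activated site. The products of the target genes sense viral nucleic acid, block steps of virus growth and feed back on the signal.

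Promoter sequences are shown first, since the response element is what many of these genes are known to share. Promoters ran from 250 bases before to 50 bases after the start site (RefSeq, GRCm38.p6), and 26 of the 35 genes matched an entry. The core of the element was searched on both strands as GAAA, any 2 bases, then GAAA. It occurred in 15 of the 26 promoters (57.7%), against 3.99% of the 27025 genes in that table. A longer form, with CT directly after the core, occurred in 8 of 26 (30.8%), against 0.303%, and every such match is also a core match. The gamma-activated site, TTCNNNGAA, occurred in 5 of 26 (19.2%), against 9.55%. The windows below were chosen for the genes on which the results turn and for the IFIT pair of near-identical copies, with core matches in capitals and each strand as the gene reads. A match on the opposite strand reads TTTC, any 2 bases, TTTC, and overlapping matches run together.
Bst2 (chr8:71537567-71537622, minus strand): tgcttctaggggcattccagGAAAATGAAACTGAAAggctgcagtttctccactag
Oas1a (chr5:120907510-120907565, minus strand): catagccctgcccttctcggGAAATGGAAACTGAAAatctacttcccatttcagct
Oas3 (chr5:120777705-120777754, minus strand): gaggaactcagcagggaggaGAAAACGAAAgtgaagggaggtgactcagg
Gbp3 (chr3:142559979-142560034, plus strand): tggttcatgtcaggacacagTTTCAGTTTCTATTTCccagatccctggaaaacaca
Isg15 (chr4:156200855-156200916, minus strand): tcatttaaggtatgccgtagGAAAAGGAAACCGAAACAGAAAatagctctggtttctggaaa
Ifit1 (chr19:34640765-34640833, plus strand): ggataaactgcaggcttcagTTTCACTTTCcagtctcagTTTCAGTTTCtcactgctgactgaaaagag
Ifit3 (chr19:34583353-34583436, plus strand): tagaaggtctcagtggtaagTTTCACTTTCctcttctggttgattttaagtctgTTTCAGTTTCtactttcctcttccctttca
Ifit3b (chr19:34607749-34607832, plus strand): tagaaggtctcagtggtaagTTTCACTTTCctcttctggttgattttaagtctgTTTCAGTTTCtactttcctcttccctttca

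In Bst2 the gamma-activated site match shares bases with the core match. Bst2, Oas1a and Gbp3 each had 2 core matches that overlap, Isg15 had 3 matches, and Ifit3 and Ifit3b were equal at all 84 bases shown. Slfn1, Irf7, Irf9 and Ifitm1 had no core match in the window. The 15 genes with a core match had a median log2 fold change of 0.29 (Hic1 against control, from -0.41 to 1.02), and the 10 tested genes without one had a median of 0.50 (from -1.61 to 1.32). These ranges overlapped widely. A match describes the letters in a window and is no measured binding site.

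Bst2 and Slfn1 rose with the Hic1 vector, and no other gene of the list passed the test between the groups. By edgeR, 2 of the 34 genes tested were called higher (5.88%, beside 0.719% of all genes tested), 0 lower (beside 1.1%) and 32 were not called. At an unadjusted p below 0.05, 13 were higher and 0 lower, while 19.1% of all genes tested passed that level in either direction. DESeq2 called 3 higher and 0 lower (beside 152 and 266 of all 11676 genes tested), and limma voom 1 higher and 0 lower (beside 33 and 88). In 17 of the 34 genes (50%) the Hic1 libraries were both above the controls, beside 26.5% of all genes tested. In 2 genes (5.88%), Ifit3b and Zbp1, they were both below, beside 24.9%, and in 15 the groups overlapped. The median log2 fold change was 0.42, beside 0.01 for all genes tested, and single values ran from -1.61 (Ifitm1) to 1.71 (Oas2). Of the 34 values 25 were above 0. With replicate number, which went with sex-linked RNA, as a term in the fit, edgeR called 9 genes of the list: Bst2, Slfn1, Gbp3, Ifi27l2a, Irf9, Oas1a, Oas2 and Oas3 higher and Ifitm1 lower. With that term 794 of all 11676 genes tested were called (378 higher, 416 lower). Calls named below are those of the fit without that term. In the values that follow, control replicates 1 and 2 come first and Hic1 replicates 1 and 2 after "against", and log2 values are fold changes of Hic1 against control with their SE. Leaving out control replicate 1 left 0 genes of the list called by edgeR (11 at an unadjusted p below 0.05) and a median of 0.28. Leaving out control replicate 2 left Oas1a alone called, leaving out Hic1 replicate 1 left Bst2 and Ifi27l2a with a median of 0.28, and leaving out Hic1 replicate 2 left Oas3 alone.

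**Figure D1:**
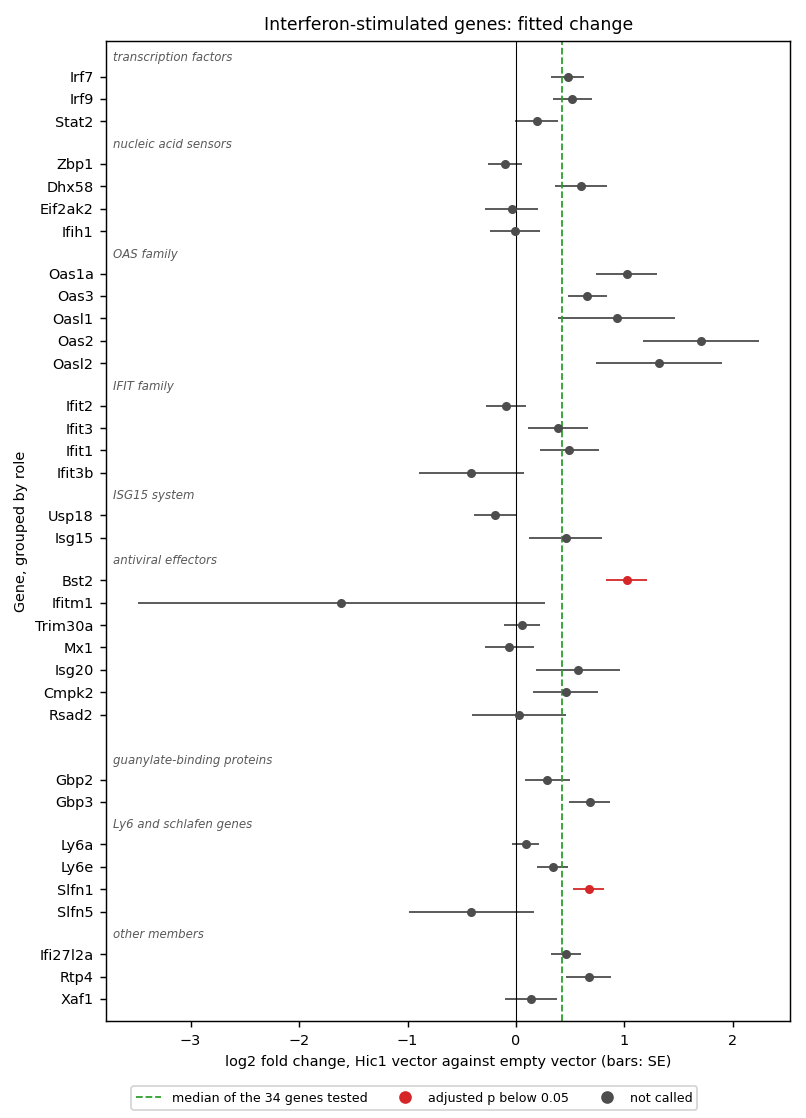
Log2 fold change of the 34 tested genes (x axis, Hic1 vector against empty vector) by gene and role (y axis), with points for fitted values, bars for standard errors, red for an adjusted p below 0.05 and a dashed line at the median of 0.42. Bst2 at 1.02 and Slfn1 at 0.67 are red, the 5 OAS genes lie between 0.66 and 1.71, and Ifitm1 at -1.61 has the widest bar (SE 1.88).

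Bst2 encodes tetherin, a membrane protein that holds newly budded virus on the cell surface. It lies on the minus strand of chromosome 8, from 71534255 to 71537456 (GRCm38). It was at 34 and 34.2 CPM in the controls (mean 34.1 ± 0.173, SD, n = 2) and 69.4 and 69.7 CPM with Hic1 (mean 69.6 ± 0.23, SD, n = 2). The Hic1 libraries were clear of the controls, and replicates hardly differed. The log2 fold change was 1.02 ± 0.191 (SE), or 2.03-fold, with an edgeR adjusted p of 0.0273. Within replicate numbers 1 and 2 the log2 difference was 1.02 and 1.02. The call was present in 10 of 14 alternatives and absent after GC correction.

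Slfn1 is a schlafen gene, a family of growth regulators and RNA-binding proteins known from developing and activated T cells. It lies on the plus strand of chromosome 11, from 83116849 to 83122670. It was at 117 and 119.7 CPM in the controls (mean 118 ± 2.06, SD, n = 2) and 182 and 195 CPM with Hic1 (mean 188 ± 9.16, SD, n = 2), again with no overlap. The log2 fold change was 0.67 ± 0.147 (SE), or 1.59-fold, with an edgeR adjusted p of 0.0472, close to the threshold. It was 0.64 and 0.70 within numbers 1 and 2. The call was present in 7 of 14 alternatives. It was absent with RLE scaling, library sizes alone and limma voom, where the log2 values were 0.66, 0.60 and 0.67 with adjusted p of 0.0505, 0.0659 and 0.0587. The other alternatives without it left out 1 library, where log2 values ran from 0.63 to 0.73. Slfn5, another schlafen gene of that chromosome, was at 7.77 and 4.0 CPM in the controls and 6.62 and 2.17 CPM with Hic1 (-0.41 ± 0.573 on the log2 scale). Its groups overlapped, and its reads are uncertain because 11.8% of its 50-base words also occur in other genes, first among them its antisense gene Slfn5os.

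**Figure D2:**
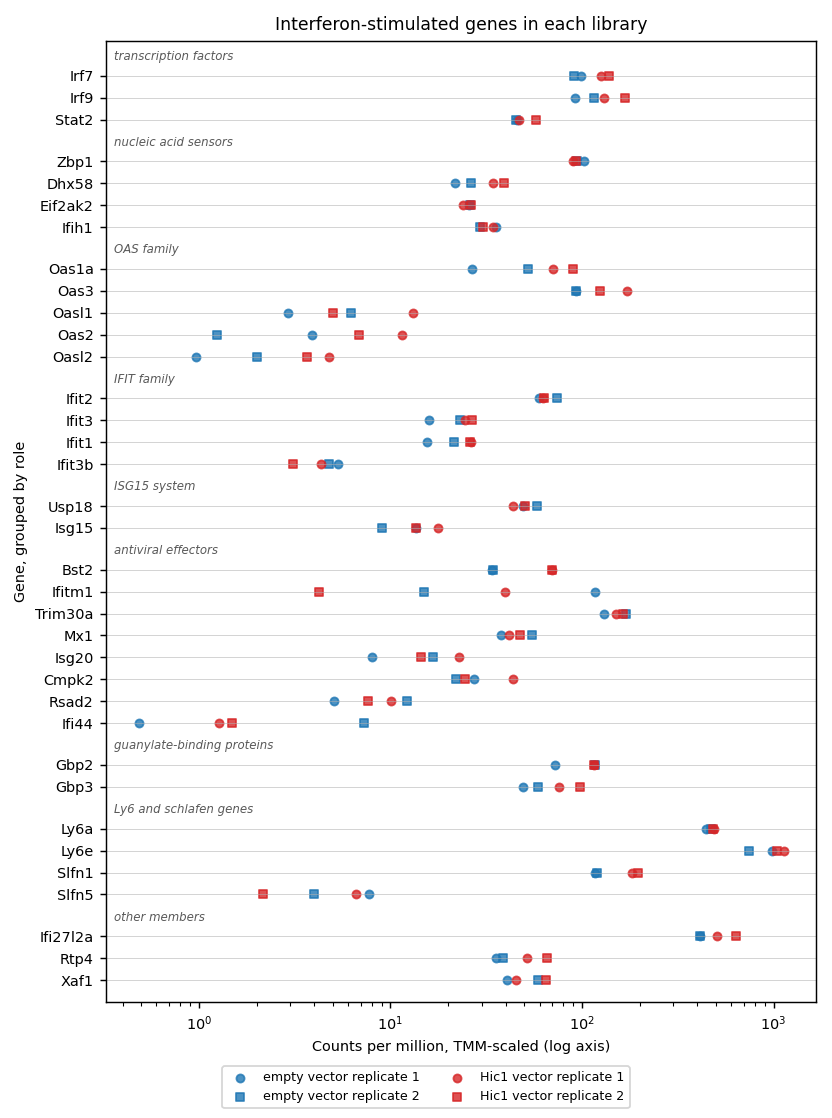
TMM-scaled CPM (x axis, log scale) of all 35 genes (y axis, grouped by role) in each library, with blue for the empty vector, red for the Hic1 vector, circles for replicate 1 and squares for replicate 2. The red points of Bst2 (69.4 and 69.7) stand clear of the blue (34.0 and 34.2), while for Ifitm1 the circles stand above the squares within each colour.

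All 3 transcription factors of the list had their Hic1 libraries above the controls, beside 26.5% of all genes tested. Of the 3, 0 were called, beside 0.719% higher and 1.1% lower of all genes tested. Irf7, the main driver of type I interferon gene expression, was at 98.3 and 90.9 CPM in the controls and 126 and 138 CPM with Hic1 (log2 value 0.48 ± 0.152, edgeR adjusted p = 0.121). Irf9, which gives the interferon-activated complex its DNA binding, was at 92 and 115 against 129.7 and 168 CPM (0.52 ± 0.178, edgeR adjusted p = 0.142). Stat2, its partner, was at 45.6 and 45.5 against 46.7 and 57.2 CPM (0.19 ± 0.202). For Stat2 only Hic1 replicate 2 stood apart from the controls.

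The OAS genes encode the 2'-5' oligoadenylate synthetases, which detect double-stranded RNA, and their OASL relatives. Their median log2 fold change, 1.02, was the highest of the role groups. In 4 of the 5 genes the Hic1 libraries were above the controls, beside 26.5% of all genes tested. Of the 5, 0 were called, beside 0.719% higher and 1.1% lower of all genes tested. Oas1a was at 26.7 and 52 CPM in the controls and 70.4 and 89.3 CPM with Hic1 (1.02 ± 0.285, edgeR adjusted p = 0.0998), with control replicate 1 far below control replicate 2. Oas3 was at 93.5 and 92.9 against 172 and 124 CPM (0.66 ± 0.179, edgeR adjusted p = 0.0791), where the controls were alike and the Hic1 libraries spread. Both are within the same cluster on chromosome 5, with Oas2, from 120730333 to 120907521. Oas1a values are uncertain, since 57.6% of its 50-base words also occur in other genes, first Oas1g and Oas1b.

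The other OAS genes were low. Oas2 had 16 and 5 counts in the controls and 82 and 60 with Hic1, or 3.88 and 1.25 against 11.5 and 6.84 CPM (1.71 ± 0.535, edgeR adjusted p = 0.117). Oasl2 had 4 and 8 against 34 and 32 counts, or 0.971 and 2.0 against 4.79 and 3.65 CPM (1.32 ± 0.578, edgeR adjusted p = 0.238). These were the highest log2 values of the list and rest on few control reads. Oasl1, which limits Irf7 translation, was at 2.91 and 6.25 against 13.1 and 5.01 CPM (0.93 ± 0.54). Its groups overlapped, and its log2 difference was 2.05 and -0.30 within numbers 1 and 2.

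The IFIT genes encode proteins that bind foreign RNA lacking the marks of host messages. They lie next to each other on chromosome 19, from 34550694 to 34650009, and gave log2 values on both sides of 0, with 0 of 4 called. Ifit1 was at 15.5 and 21.5 CPM in the controls and 26.2 and 26 CPM with Hic1 (0.49 ± 0.272, edgeR adjusted p = 0.36). Ifit3 was at 15.8 and 23.2 against 24.5 and 26.8 CPM (0.39 ± 0.278, edgeR adjusted p = 0.482). In both genes control replicate 1 was the lowest library and the Hic1 libraries were above both controls. Ifit2 was at 59.7 and 74.2 against 62.7 and 63 CPM (-0.09 ± 0.184, 0.09 after GC correction), with overlap. Ifit3b was at 5.34 and 4.75 against 4.36 and 3.08 CPM (-0.41 ± 0.485), with both Hic1 libraries below the controls by less than the standard error. Ifit3 and Ifit3b share 51.2% and 45.0% of their 50-base words with other genes, first with each other, so their separate values are uncertain.

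Isg15, a ubiquitin-like protein that is joined to other proteins, was at 13.6 and 8.99 CPM in the controls and 17.7 and 13.6 CPM with Hic1 (0.46 ± 0.335, edgeR adjusted p = 0.498). Usp18, the protease that takes Isg15 off and restrains the type I receptor, was at 49.3 and 58 against 43.5 and 50.6 CPM (-0.19 ± 0.201, edgeR adjusted p = 0.67). The groups overlapped in both genes.

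Of the 4 nucleic acid sensors 0 were called. Dhx58, the RNA sensor LGP2, was at 21.8 and 26.2 CPM in the controls and 34.4 and 39 CPM with Hic1 (0.60 ± 0.237, edgeR adjusted p = 0.195), with no overlap. It shares 4.1% of its 50-base words with the antisense gene Dhx58os, and no source used here says whether counting used strand. The other 3 sensors had differences smaller than their standard errors. Ifih1, the RNA sensor MDA5, was at 35.7 and 29.5 against 34.4 and 30.4 CPM (-0.01 ± 0.23). Eif2ak2, the RNA-activated kinase PKR, was at 25.7 and 26 against 23.8 and 26.3 CPM (-0.04 ± 0.243). Zbp1, which senses Z-form nucleic acid and can start cell death, was at 102 and 93.9 against 90.0 and 92.6 CPM (-0.10 ± 0.155). Without the filter on low counts, and after GC correction, the values of Ifih1 and Eif2ak2 were above 0.

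Apart from Bst2, 0 of the 6 other tested antiviral effectors were called and the groups overlapped in all 6. Mx1, a dynamin-like GTPase that traps viral nucleoproteins, was at 37.9 and 55 CPM in the controls and 41.4 and 47.6 CPM with Hic1 (-0.06 ± 0.228, 0.03 after GC correction). Trim30a, a regulator of innate signalling, was at 130.3 and 170.1 against 151 and 163 CPM (0.06 ± 0.166, -0.01 with library sizes alone). Cmpk2 and Rsad2 are neighbours on chromosome 12, from 26442746 to 26479837, and act in 1 path: Cmpk2 is a nucleotide kinase, and Rsad2 encodes viperin, which makes a chain-ending nucleotide. Cmpk2 was at 27.2 and 22 against 43.5 and 24.4 CPM (0.46 ± 0.298), with Hic1 replicate 1 high. Rsad2 was at 5.1 and 12.2 against 10.1 and 7.63 CPM (0.03 ± 0.435, -0.04 with library sizes alone). Isg20, an exonuclease that degrades viral RNA, was at 8.01 and 16.7 against 22.7 and 14.4 CPM (0.57 ± 0.386). The log2 difference within numbers 1 and 2 had opposite signs for Rsad2 (0.95 and -0.66) and for Isg20 (1.46 and -0.22). Ifi44 had 2 and 29 counts in the controls and 9 and 13 with Hic1 and was not tested. Its highest library was control replicate 2.

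Ifitm1, a membrane protein that hinders virus entry, differed more by replicate number than by vector. It was at 117 and 15 CPM in control replicates 1 and 2 and at 39.4 and 4.22 CPM in Hic1 replicates 1 and 2. Replicate 2 minus replicate 1 was -2.94 on the log2 scale in the controls and -3.13 with Hic1. Within numbers 1 and 2 the Hic1 library was the lower one (-1.57 and -1.75). The group comparison gave -1.61 ± 1.88, with overlap and no call (edgeR adjusted p = 0.745), and 0.52 without control replicate 1. With replicate number as a term it was -1.63 (edgeR adjusted p = 0.00191). A same-signed difference of over 1 log2 unit between numbers in both groups was seen in 1 of the 34 genes (2.94%), Ifitm1, and in 158 of all genes tested (1.35%). Whether sex or another trait of the replicates bears on this was not tested.

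**Figure D3:**
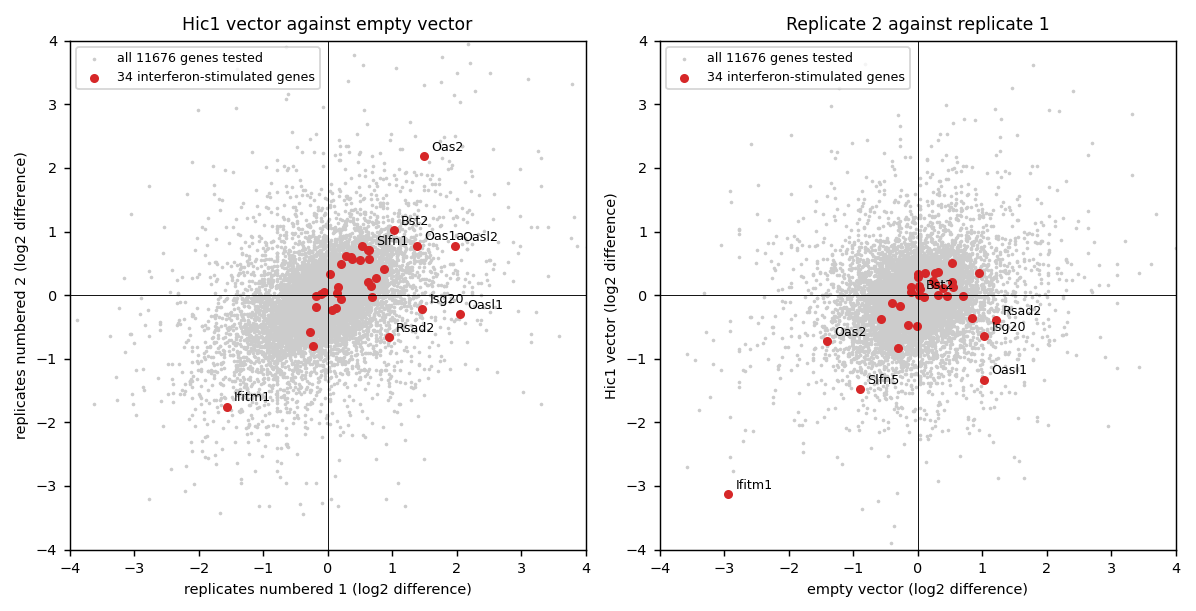
Left, log2 difference of Hic1 from empty vector within replicates 1 (x axis) and 2 (y axis). Right, log2 difference of replicate 2 from replicate 1 with the empty vector (x axis) and the Hic1 vector (y axis), with red for the 34 genes and grey for all 11676 tested (15 genes lie beyond 4 on the left). Bst2 is at 1.02 on both axes on the left and Ifitm1 at -2.94 and -3.13 on the right.

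Within number 1 the median log2 difference of the 34 genes was 0.43, and within number 2 it was 0.17, beside 0.02 and 0.01 for all genes tested. The Hic1 library was the higher one within both numbers for 20 of 34 genes, beside 34.8% of all genes tested. It was the lower one within both for 5, and the sign differed for 9. Each of these differences rests on 1 library a side.

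Guanylate-binding proteins are GTPases that act on membranes around intracellular pathogens. Gbp3 was at 49.3 and 59.2 CPM in the controls and 76.2 and 97.4 CPM with Hic1 (0.68 ± 0.192, edgeR adjusted p = 0.0919), with no overlap and no call. Gbp2, its neighbour on chromosome 3, was at 72.1 and 117 against 116 and 115 CPM (0.29 ± 0.208). There control replicate 1 was low and the other 3 libraries were alike.

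The 5 remaining genes had log2 values above 0 and 0 of 5 were called. Ly6e, a lipid-anchored surface protein that limits virus fusion, was at 981 and 741 CPM in the controls and 1136 and 1041 CPM with Hic1 (0.34 ± 0.144, edgeR adjusted p = 0.227). Ly6a (Sca-1), a related surface protein, was at 442 and 471 against 491 and 481 CPM (0.09 ± 0.125). Ifi27l2a, a small hydrophobic interferon-induced protein, was at 413 and 414 against 504 and 635 CPM (0.46 ± 0.141, edgeR adjusted p = 0.108). For these 3 genes the Hic1 libraries were above the controls, for Ly6a by little. Rtp4, a receptor chaperone, was at 35.4 and 38.5 against 51.5 and 66 CPM (0.67 ± 0.21, edgeR adjusted p = 0.119), also with no overlap. Ly6a and Rtp4 share 10% and 13.6% of their 50-base words with other genes, so part of their reads may be misplaced. Xaf1, which promotes apoptosis, was at 40.8 and 59.2 against 45.5 and 64.7 CPM (0.14 ± 0.242). In Xaf1 replicate 2 was the higher library of each group.

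To compare levels between genes, CPM was divided by exon length in kilobases. Over all 4 libraries the level ran from 0.427 CPM per kilobase for Ifi44 to 1062 for Ifi27l2a, with a median of 16.5. After Ifi27l2a came Ly6a (391 CPM per kilobase), Ly6e (258), Slfn1 (82.2) and Bst2 (57.4). The lowest tested genes were Oasl2 (0.447 CPM per kilobase), Slfn5 (0.812) and Oas2 (1.32). Both called genes were among these 5, but the ranking includes the Hic1 libraries, in which they were higher. In the controls alone Slfn1 was at 63.4 CPM per kilobase and Bst2 at 37.8. There Bst2 was below Ifitm1 (60.5) and close to Gbp2 (37.6) and Trim30a (36.5).

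Among the 15 tested genes that carry the interferon signal, Irf2 fell (6.67%, beside 1.1% of all genes tested) and 0 rose (beside 0.719%). At an unadjusted p below 0.05 there were 5 of 15, beside 19.1% of all genes tested. Both Hic1 libraries were above the controls in 5 (33.3%, beside 26.5%) and below in 3 (20%, beside 24.9%). Irf2, a repressor that competes with Irf1 for DNA, was at 179 and 147 CPM in the controls and 101 and 101 CPM with Hic1 (-0.69 ± 0.157). Its edgeR adjusted p rounds to 0.05 and lies just under the threshold, and it was called in 7 of 14 alternatives. Jak1 was at 2116 and 2058 against 1393 and 1633 CPM (-0.46 ± 0.118, edgeR adjusted p = 0.0679). Irf3 was at 76 and 87.9 against 124 and 120.0 CPM (0.57 ± 0.157, edgeR adjusted p = 0.0853). The groups of both genes did not overlap, with Jak1 lower and Irf3 higher in the Hic1 libraries. For the receptors, Ifnar1 was at 156 and 174 against 188 and 157 CPM, Ifnar2 at 96.1 and 74.2 against 91 and 94 CPM and Ifngr1 at 532 and 607 against 648 and 707 CPM, with log2 values of 0.06 ± 0.156, 0.12 ± 0.173 and 0.25 ± 0.128. Ifngr2 had 0 and 5 counts in the controls and 1 and 6 with Hic1. The median of the 15 genes tested was 0.12.

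Of 21 interferon genes only Ifng could be tested. It was at 40.1 and 24.2 CPM in the controls and 35.9 and 17.2 CPM with Hic1 (-0.28 ± 0.368), with overlap and replicate 1 the higher one of each group. Of the other 20, 14 had no count in any library and 6 had 1 to 3 counts in all. No count among the 24299312 of the 4 libraries allows a level of up to 0.123 CPM (3 counts, for counting error only).

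In the feedback list 0 of 15 genes were called, 2 had an unadjusted p below 0.05 (beside 19.1% of all genes tested) and the median was -0.11. Both Hic1 libraries were above the controls in 3 (20%, beside 26.5% of all genes tested) and below in 5 (33.3%, beside 24.9%). Irf2bpl was at 40.1 and 37 CPM in the controls and 20 and 21 CPM with Hic1 (-0.90 ± 0.232, edgeR adjusted p = 0.0694). Pias4, an inhibitor of STAT proteins, was at 38.8 and 37 against 61.5 and 60.2 CPM (0.68 ± 0.193, edgeR adjusted p = 0.0921). Socs1, an inhibitor of JAK kinases, was at 5.1 and 5.75 against 6.76 and 3.3 CPM, with overlap. In the nucleic acid sensing list 0 of 17 genes were called, 5 had an unadjusted p below 0.05 (beside 19.1%) and the median was 0.20. Both Hic1 libraries were above the controls in 9 (52.9%, beside 26.5%) and below in 3 (17.6%, beside 24.9%). Ikbke, a kinase of Irf3 and Irf7, was at 70.6 and 62.7 against 95.2 and 118 CPM (0.67 ± 0.174, edgeR adjusted p = 0.0714).

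Of 68 further interferon-stimulated genes, 3 rose (4.41%, beside 0.719% of all genes tested), 0 fell (beside 1.1%) and 65 were not called. At an unadjusted p below 0.05 there were 20, beside 19.1% of all genes tested, and the median was 0.16. Shisa5 was at 1171 and 1203 CPM in the controls and 1873 and 1851 CPM with Hic1 (0.65 ± 0.11, edgeR adjusted p = 0.0204). Parp10, an ADP-ribosyltransferase, was at 70.4 and 63.2 against 139 and 107 CPM (0.88 ± 0.177, edgeR adjusted p = 0.0359), and Epsti1 at 542 and 567 against 817 and 795 CPM (0.54 ± 0.12, edgeR adjusted p = 0.0474). All 3 had Hic1 libraries clear of the controls. Of the 68, 28 did so on the higher side (41.2%, beside 26.5% of all genes tested) and 11 on the lower (16.2%, beside 24.9%). Of 13 GTPases typical of interferon gamma 0 were called, 2 had an unadjusted p below 0.05 and the median was 0.32. In 9 of them (69.2%, beside 26.5% of all genes tested) both Hic1 libraries were above the controls. Tgtp2, one of these, was at 24.5 and 36.2 against 40.3 and 56.6 CPM (0.67 ± 0.259).

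**Figure D4:**
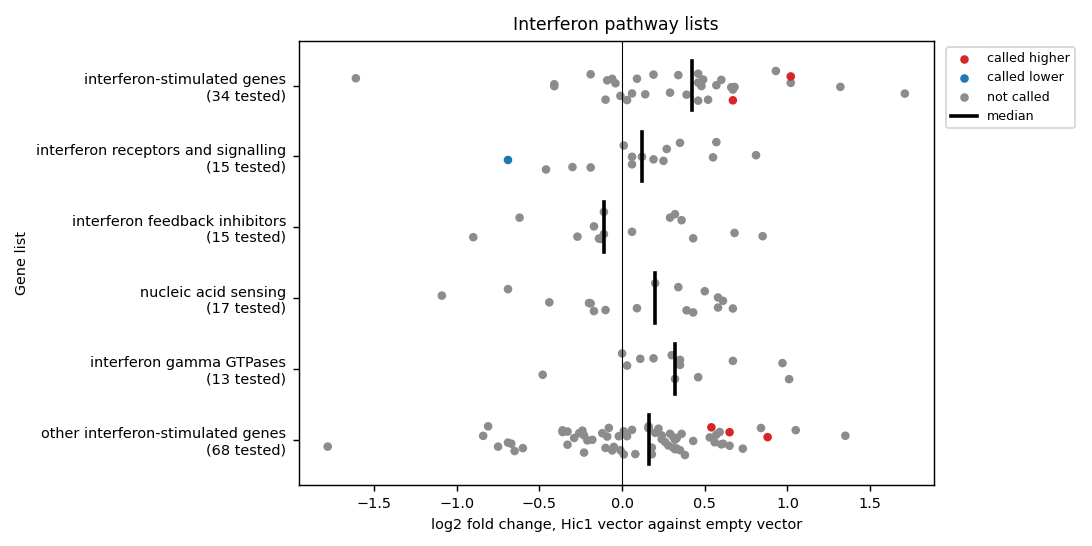
Log2 fold change (x axis, Hic1 vector against empty vector) of each tested gene in the interferon lists (y axis), with red called higher, blue called lower, grey not called and black bars for medians. The median of the interferon-stimulated genes is 0.42, and those of the other lists shown lie from -0.11 for feedback inhibitors to 0.32 for interferon gamma GTPases.

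In bulk RNA a change in the number of cells of a type and a change in RNA per cell cannot be told apart. A marker sum also does not tell which cells made the RNA, CD8 T cells among them. Sums made up mostly of a single gene follow that gene. Markers of B cells moved with the group: 10 of them summed to 79.6 and 91.4 CPM in the controls and 280.2 and 215 CPM with Hic1, with 4 to 9 of 10 detected in a library. Most of this was Ighm, which rose (61.4 and 84.4 to 238 and 197 CPM), while Pax5, a defining B cell factor, was at 0.485 and 0.25 against 0 and 0.57 CPM and was not tested. The other tested B cell markers were Cd79b (16.3 and 3.25 against 38 and 13.3 CPM, 1.36 ± 0.776) and Cd79a (1.46 and 0 against 2.39 and 1.82 CPM, 1.19 ± 0.809), neither called, and the median of all 3 was 1.36. Among 9 NK cell markers, which summed to 3156 to 3789.9 CPM and were mostly Nkg7, Klra8 rose (0.485 and 0.25 to 11 and 5.47 CPM), while Ncr1 was at 0 and 0.5 against 0.141 and 0.114 CPM. Of the 7 NK cell markers tested 4 had an unadjusted p below 0.05 (beside 19.1% of all genes tested), and the median was 0.09. Besides Klra8 these were Klra4 (9.22 and 0.25 against 43.4 and 45.7 CPM, 3.14 ± 0.936), Klrb1c (29.4 and 43.7 against 58.6 and 70.8 CPM, 0.82 ± 0.23) and Eomes (20.4 and 17.2 against 6.05 and 11.7 CPM, -1.04 ± 0.36), none of them called. The 11 dendritic cell markers other than Bst2 summed to 503 and 548 CPM in the controls and 655 and 555 CPM with Hic1, mostly Itgax. Siglech, which marks plasmacytoid dendritic cells, a type rich in Bst2, was at 0.243 and 0 against 0 and 0 CPM. Of the 7 dendritic cell markers tested, Bst2 included, only Bst2 was called, 4 had log2 values above 0 and the median was 0.22. Xcr1 (11.9 and 12.5 against 20.4 and 15.8 CPM, 0.56 ± 0.305) and Itgax (477 and 499 against 619 and 518 CPM, 0.22 ± 0.133) were higher with Hic1. Cd74 was lower (4.61 and 7.74 against 3.52 and 3.3 CPM, -0.80 ± 0.483), and these 3 had no overlap. The 11 macrophage and monocyte markers summed to 651 to 807 CPM, mostly Ccr2, with Lyz2 at 0 and 0 against 0 and 1.48 CPM. Of the 4 tested 0 were called, 1 had a log2 value above 0 and the median was -0.33. Itgam was lower with Hic1 (33.5 and 28.2 against 15.5 and 17.8 CPM, -0.88 ± 0.259) and Cd68 higher (12.6 and 26.2 against 27.6 and 26.9 CPM, 0.48 ± 0.325), each with no overlap. Adgre1, not tested, was at 1.46 and 2.5 against 0 and 0 CPM. The 6 CD4 and regulatory T cell markers summed to 57.5 and 40.0 CPM in the controls and 106 and 58.8 CPM with Hic1. Cd4 was at 0.485 and 0.25 against 0.704 and 0.228 CPM and Foxp3 at 0.485 and 0 against 0 and 0.228 CPM, neither tested. All 4 markers tested had log2 values above 0, with a median of 0.68, and 0 were called. Ikzf2 (9.47 and 5.5 against 21.3 and 12.4 CPM, 1.13 ± 0.389) and Zbtb7b (9.95 and 14 against 18.2 and 18.6 CPM, 0.61 ± 0.309) had no overlap, while Ctla4 and Cd40lg overlapped. The 8 neutrophil markers summed to 0.986 to 3.4 CPM and the 9 red cell and platelet markers to 4.0 to 5.21 CPM. The part of these markers, and of the gap in depth, in the values of the interferon-stimulated genes was not tested.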

How the data were processed

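The authors deposited raw counts per gene for 4 Smart-seq2 libraries. Cells had been sorted and sorted again, to 1000 per sample, and amplified with 12 PCR cycles, per the labels' protocols. DESeq2 (1.3.2), featureCounts (1.5.3), STAR (2.5.2b), Trimmomatic (0.38) and mm10 are named in the submitters' processing notes without roles. No source used here gives the annotation release, the strand setting or the treatment of reads with several matches. A normalized table was not used.

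Groups came from sample titles. Genes were filtered with filterByExpr (minimum count 10, minimum total 15), scaled by TMM and compared between the groups with edgeR 4.0.16 (quasi-likelihood F test, robust, prior count 2), with Benjamini-Hochberg adjustment over all 11676 genes tested. A gene was called at an adjusted p below 0.05. The code was tested on simulated data. Reads carry no molecular identifiers, so floors cover counting error only. Positions, exon lengths and GC came from GENCODE M21 (GRCm38), to which 99.5% of identifiers matched. The 50-base words of each gene's transcript were compared with those of all other genes. The 14 alternatives covered scaling, filters, DESeq2 1.42.0, limma voom 3.58.1 (R 4.3.3), GC content (loess span 0.3), a replicate block, ribosomal RNA and each library left out.

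All 35 genes could be named, as could Hic1, Ifng, its receptors, Ifnar1, Ifnar2, Jak1, Tyk2, Irf1 and Socs1, up to 4 tested genes of lowest p and every called gene in the other pathway lists, and defining markers. The genes and lists were chosen with earlier results of these data known. Some genes of the other lists are not reported here by name.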

Additional observations from a re-analysis of the deposited data

How the results depend on the processing

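The test called 213 genes in all (84 higher, 129 lower), 2 of the interferon-stimulated genes and 4 in the other pathway lists, and the median log2 fold change of the list was 0.42. With RLE scaling 1 gene of the list and 2 in the pathway lists were called. With library sizes alone 321 genes in all (70 higher, 251 lower) and 1 of the list were called, the median was 0.35, and the log2 difference of summed markers of other cell types was 0.05 in place of 0.13. DESeq2 called 418 genes in all. Limma voom called 121 in all (33 higher, 88 lower), 1 of the list and 1 in the pathway lists. With no filter on low counts 819 (461 higher, 358 lower), 9 and 14 were called. GC correction gave 130, 1 and 2 calls and a median of 0.36. The stricter filter and leaving out ribosomal RNA genes kept all 4 values within 1.5 times or 1 SD. The longer promoter motif was found in 30.8% in place of 57.7%. Leaving out 1 library at a time gave 8 to 318 genes in all, 0 to 2 of the list, 0 to 5 in the pathway lists and medians of 0.28 to 0.45, the lowest counts without control replicate 1. The lone library of a group was then assumed to vary like those of the other group.

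No label pairs the samples by replicate number, though sex-linked RNA followed the number in both groups. Over the genes tested, the deviations of the replicates numbered 1 from their group means correlated at 0.239 between the groups. With 2 libraries a group, the replicates numbered 2 give the same value by construction. With a replicate block, 794 genes in all, 9 of the list (8 higher and Ifitm1 lower) and 15 in the pathway lists were called. With GC correction and the replicate block these were 462, 5 (4 higher and Ifitm1 lower) and 9, with a median of 0.36. Some log2 values changed sign. After GC correction, without and with the block, Ifit2 was at 0.09 and 0.09, Ifih1 at 0.16 and 0.17, Mx1 at 0.03 and 0.04 and Eif2ak2 at 0.11 and 0.11. Without the filter Ifih1 was at 0.05, Mx1 at 0.01 and Eif2ak2 at 0.02, and with library sizes alone Rsad2 was at -0.04 and Trim30a at -0.01. With 1 library left out, values ran from -0.24 to 0.06 for Ifit2, -0.15 to 0.14 for Ifih1, -0.30 to 0.22 for Mx1, -0.45 to 0.75 for Rsad2, -0.13 to 0.42 for Xaf1, -0.11 to 0.26 for Trim30a, -0.01 to 0.82 for Cmpk2, -0.11 to 0.03 for Eif2ak2, -1.30 to 0.16 for Slfn5, -0.02 to 0.66 for Gbp2 and -3.86 to 0.52 for Ifitm1. Across the alternatives 409 single-gene values kept direction and call, 11 lost a call (2 genes), 21 gained one (8 genes) and 29 changed sign (11 genes). The cause was not tested.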
